A study of Mus musculus with 3 samples.

Results

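Transcripts of 9 enzymes, those of the pentose phosphate pathway and of cytosolic producers of the reducing cofactor NADPH, were followed in C2C12 cells, a mouse myoblast line, after removal of a Notch pathway inhibitor. The genes were chosen by name, with earlier results of these data known. All 9 were found, each in 1 row, among the 23298 gene symbols of the series table. Its values are FPKM, in which fragments are scaled by transcript length and library size. The cells carried hN1∆ECD, a name that denotes a human NOTCH1 without its extracellular domain, whose release from the membrane needs gamma-secretase but no ligand. All cultures were kept in DMEM with 20% FBS, and per the treatment protocol in 10 uM DAPT, a gamma-secretase inhibitor. The inhibitor was washed out 1 h or 6 h before collection in the cultures of interest. There were 3 libraries of polyadenylated RNA, 1 per group: a control titled as no treatment, 1 h after washout, and 6 h after washout. Whether DAPT was still on the control when it was collected, or its medium was changed, is not said in the labels, and neither are the promoter of the transgene and the clonality of the line.

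The pentose phosphate pathway branches from glycolysis at glucose 6-phosphate. Its oxidative branch makes NADPH and ribulose 5-phosphate through a first dehydrogenase (mouse gene G6pdx), 6-phosphogluconolactonase (Pgls) and 6-phosphogluconate dehydrogenase (Pgd), of which the dehydrogenases make the NADPH. The non-oxidative branch starts with an isomerase (Rpia) and an epimerase (Rpe), and transketolase (Tkt) and transaldolase (Taldo1) then exchange carbon units between sugar phosphates, linking ribose for nucleotides back to glycolysis. Malic enzyme 1 (Me1) and cytosolic isocitrate dehydrogenase 1 (Idh1) make NADPH in the cytosol outside this pathway. NADPH drives fatty acid and sterol synthesis, and keeps glutathione and thioredoxin reduced. The transcription factor NRF2, which binds antioxidant response elements in DNA, is known for activating genes of antioxidant defence and of NADPH production.

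The proximal promoters of the first and the last enzyme of the oxidative branch are shown because they are the steps with the largest differences at 1 h among the pathway genes. Each run is the 250 bases before an annotated start, 5′ to 3′ on the gene's strand, from RefSeq on GRCm38.p6, a later build than the mm9 of the expression files. Capitals mark a match to the core antioxidant response element TGACNNNGC on either strand. The G6pdx window is chrX:74428881-74429130 on the minus strand, and the Pgd window, at the upstream one of its annotated starts, is chr4:149166706-149166955 on the minus strand.
G6pdx: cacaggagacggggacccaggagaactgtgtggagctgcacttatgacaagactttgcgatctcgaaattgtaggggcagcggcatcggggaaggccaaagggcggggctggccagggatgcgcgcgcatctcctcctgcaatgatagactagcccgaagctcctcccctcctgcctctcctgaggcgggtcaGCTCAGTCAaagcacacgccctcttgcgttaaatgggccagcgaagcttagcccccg
Pgd: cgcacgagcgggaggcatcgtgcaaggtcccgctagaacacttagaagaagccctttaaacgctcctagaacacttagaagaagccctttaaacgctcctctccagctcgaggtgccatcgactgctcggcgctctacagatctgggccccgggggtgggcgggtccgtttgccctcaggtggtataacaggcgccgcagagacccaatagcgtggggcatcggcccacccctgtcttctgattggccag
The single G6pdx match begins at position -57, counted back from -1 at the base before the start, and reads on the opposite strand. All 9 genes had an entry, with 12 start sites in all, and 1 of the 12 windows held the element. Of 32817 promoter windows of the same length, 10.2% held it, so the share among these genes was near the background. The core site of RBPJ, the DNA-binding partner of Notch, was searched as TGGGAA on both strands; it was found in 1 of the 12 windows, that of Rpia, and in 21.6% of all windows. The 2 motifs share no match at these promoters, and neither search says whether a factor binds there.

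Library facts that bear on the values were as follows. Summed FPKM over all genes lay between 553792 and 576610, and depth estimated from the spacing of low values was about 20300000 to 23200000 fragments per library. Myoblast markers Des, Itga7, Cdh15, Myf5 and Vcam1 were present, but not at steady levels. Ordered as control, 1 h, 6 h, the myoblast list summed to 167, 217 and 234 FPKM. Cdh15 was highest in the last library (27.4, 41.2, 87.0) and Myf5 in the middle one (11.4, 26.4, 8.51). Des (62.2, 73.3, 66.3), Itga7 (50.4, 58.0, 60.7) and Vcam1 (14.9, 17.3, 11.7) varied less. The bearing of these shifts on the enzymes was not tested. Of the other myoblast markers, Myod1 was at most 0.295 FPKM, Chrng at most 0.284 FPKM and Pax7 at most 0.0109 FPKM. Differentiated muscle markers summed to 37.1 FPKM in the control, 38.4 FPKM at 1 h and 32.6 FPKM at 6 h. Most of that sum was Acta1, with 33.7, 35.5 and 29.2 FPKM, while Myog was at most 0.625 FPKM. Hes1, a direct Notch target, had 22.5 FPKM in the control, 254 FPKM at 1 h and 44.8 FPKM at 6 h. Endothelial, leukocyte and osteoblast markers summed to at most 1.04 FPKM per list. Of 4 adipocyte markers Fabp4 and Pparg were expressed, and the list summed to 18.7 FPKM in the control, 24.4 FPKM at 1 h and 16.2 FPKM at 6 h, with Plin1 listed at 0 throughout; its part in the results was not tested. Because each group was 1 library, no test between groups was possible, and no difference has a replicate check. Every interval is built from the spans of the authors' 95% bounds, which reflect sampling of fragments and their assignment to genes, not differences between cultures. In bulk RNA, fewer cells with a transcript and less of it per cell cannot be told apart.

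In the control the 9 transcripts spanned a wide range of levels. Pgd was the most abundant at 347 FPKM, at the 97.5 percentile of the 10464 genes that averaged 1 FPKM or more over the libraries (called expressed here). Taldo1 followed at 153 FPKM, then G6pdx at 94.4, Pgls at 74.3, Me1 at 57.9, Tkt at 55.5, Idh1 at 29.0, Rpe at 14.8 and Rpia at 12.1 FPKM. With the error centred on each FPKM, Me1 and Tkt were the neighbours in that order that could not be separated, with a ratio of 1.04 (0.986 to 1.11). The place of Pgls is uncertain, because its FPKM lay above its own deposited bounds. In the control its bounds (54.4 to 63.2) overlapped those of Me1 (54.0 to 58.6) and Tkt (53.5 to 58.0). At 1 h Pgls was listed at 75.5 and G6pdx at 62.8 FPKM, yet the bounds of Pgls (55.1 to 64.7) held those of G6pdx (56.3 to 61.4), so their order there was not settled. Rpe and Rpia could not be separated at 1 h either. At 6 h Tkt stood above Me1, and Idh1, Rpia and Rpe followed each other with intervals that held 1.

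**Figure D1:**
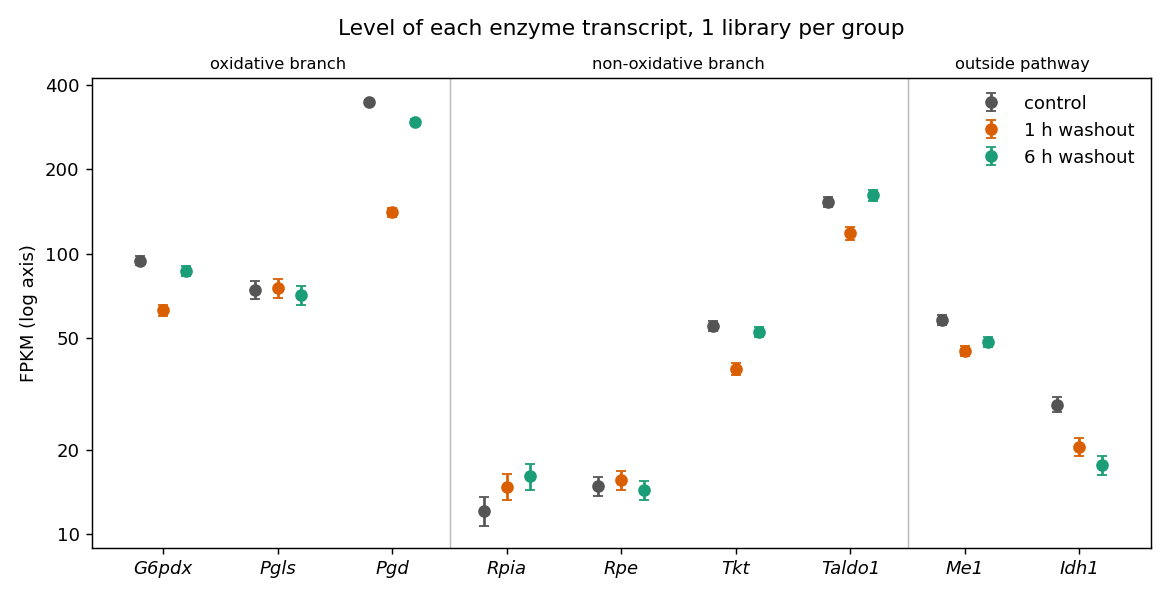
FPKM (log axis) of the 9 transcripts in each of the 3 libraries, ordered by branch, 1 point per library; bars carry the relative width of the deposited 95% bounds, centred on the value. Pgd goes from 347 to 141 and back to 295 FPKM, G6pdx, Tkt and Taldo1 are lowest at 1 h, and Idh1 is lowest at 6 h.

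The 1 h library was set against the control to see which of these enzymes differed soon after the inhibitor was removed. Pgd, which makes the second NADPH of the oxidative branch, was 2.46-fold lower at 1 h, and G6pdx, the committed first step, was 33.4% lower. The carbon-exchange enzymes Tkt and Taldo1 and the cytosolic NADPH producers Idh1 and Me1 were also lower. Pgls, Rpe and Rpia were not. On log2(FPKM + 1) the differences of the 6 lower genes lay between -1.29 and -0.35, and those of the other 3 between 0.02 and 0.27.

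In the oxidative branch, Pgd (chromosome 4, 148524094 to 148540816, mm9) had 347 FPKM in the control, 141 FPKM at 1 h and 295 FPKM at 6 h. The 1 h library was the low one, at a ratio to control of 0.406 (0.389 to 0.423). Among all expressed genes, its log2 difference of -1.29 was at the 0.6 percentile. G6pdx (chromosome X, 71654825 to 71674500, mm9) had 94.4, 62.8 and 86.8 FPKM in the same order. Its ratio at 1 h was 0.666 (0.629 to 0.704), and its log2 difference of -0.58 fell just short of 1.5-fold on the log2(FPKM + 1) scale. Some of its fragments could belong to the retrogene copy G6pd2, listed at 2.72, 2.21 and 2.89 FPKM, since how shared fragments were assigned is not stated. Pgls (chromosome 8, 74116083 to 74120166, mm9), the hydrolase between these dehydrogenases, had 74.3, 75.5 and 71.3 FPKM. Its 1 h ratio was 1.02 (0.911 to 1.13), so that the middle step of the branch did not share the lower level of its neighbours. The summed level of the branch was 516 FPKM in the control and 279 FPKM at 1 h, and Pgd made up 67.3% and 50.4% of it.

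In the non-oxidative branch, Tkt (chromosome 14, 31362335 to 31387908, mm9) had 55.5 FPKM in the control, 38.9 FPKM at 1 h and 52.5 FPKM at 6 h. Its 1 h ratio was 0.701 (0.658 to 0.746). Taldo1 (chromosome 7, 148578059 to 148588875, mm9) had 153, 118 and 162 FPKM, with a 1 h ratio of 0.770 (0.721 to 0.822). Both were lowest in the 1 h library. The enzymes that interconvert pentose phosphates differed from them. Rpia (chromosome 6, 70715714 to 70742169, mm9) had 12.1, 14.8 and 16.1 FPKM, lowest in the control, with a 1 h ratio of 1.22 (1.04 to 1.43) and overlapping bounds. Rpe (chromosome 1, 66747467 to 66766379, mm9) had 14.8, 15.6 and 14.4 FPKM, a 1 h ratio of 1.05 (0.943 to 1.17). The branch summed to 236 FPKM in the control, 187 FPKM at 1 h and 245 FPKM at 6 h.

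Outside the pathway, Idh1 (chromosome 1, 65205190 to 65233053, mm9) had 29.0 FPKM in the control, 20.5 FPKM at 1 h and 17.6 FPKM at 6 h. The control was the high library, and the 1 h ratio was 0.707 (0.642 to 0.780). Me1 (chromosome 9, 86474970 to 86589947, mm9) had 57.9, 45.1 and 48.6 FPKM, with a 1 h ratio of 0.779 (0.734 to 0.826). Together these genes summed to 86.9 FPKM in the control, 65.6 FPKM at 1 h and 66.2 FPKM at 6 h.

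**Figure D2:**
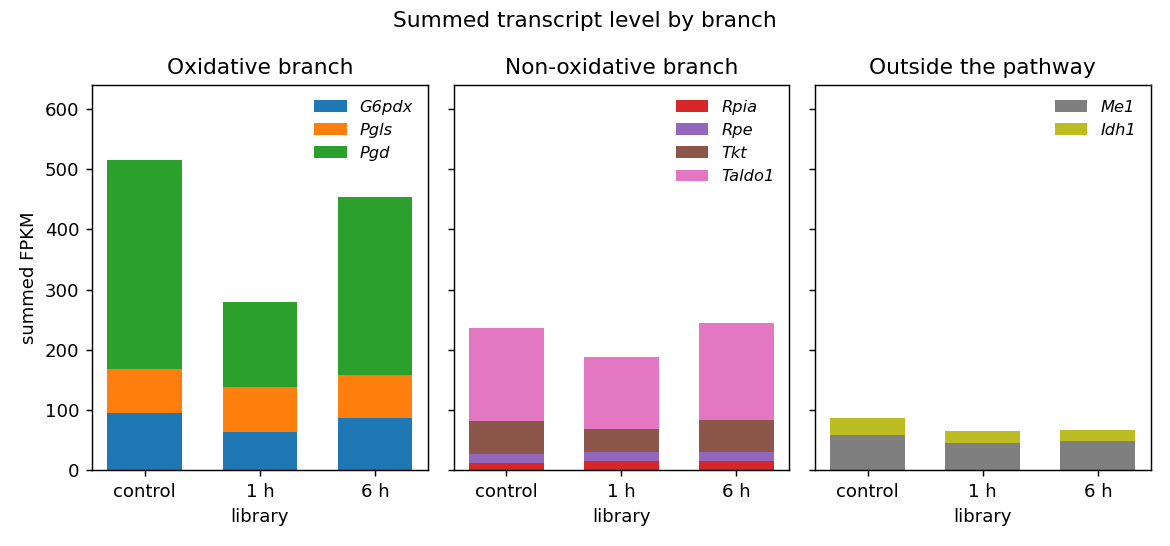
Summed FPKM of the oxidative branch, the non-oxidative branch and the 2 genes outside the pathway in each library (linear axis from 0), split by gene. The oxidative sum goes from 516 to 279 and 453 FPKM, most of it through Pgd, while the sum outside the pathway is 86.9, 65.6 and 66.2 FPKM.

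At 1 h, 1 of the 9 enzymes (Pgd) was at least 2-fold lower and 0 were at least 2-fold higher, beside 0.831% and 1.31% of all expressed genes. At a 1.5-fold threshold on log2(FPKM + 1) Pgd was still the 1 lower gene and 0 were higher, beside 3.50% of genes lower and 3.04% higher. The deposited bounds of the libraries were apart for 6 of the 9, all lower, beside 20.1% of expressed genes lower and 14.9% higher. Among genes averaging 10 FPKM or more, as all 9 enzymes did, the share lower with bounds apart was 22.9%. Because the 9 were chosen with earlier results of these data known, these counts are no independent evidence. The median log2 difference of the 9 was -0.37, that of all expressed genes -0.02, and that of the 8 without Pgd -0.36. Values of Pgd, G6pdx, Pgls and Taldo1 lay outside their own deposited bounds in every library, and ratios of bound midpoints differed from ratios of FPKM by at most 3.56% for any enzyme and comparison. Of the epithelial markers, Krt14 was also lower at 1 h, with 22.0, 14.5 and 22.3 FPKM in control, 1 h and 6 h, while Epcam was listed at 0 in all libraries and Krt5 was at most 0.0516 FPKM; the list summed to 22.0, 14.5 and 22.4 FPKM.

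The 6 h library was set against the same control to follow the later state. Pgd, G6pdx, Tkt and Taldo1 were closer to the control than at 1 h, and Idh1 and Rpia were further from it. The lowest ratio of the 9 at 6 h was that of Idh1. Idh1 was 1.65-fold lower, with a ratio of 0.607 (0.550 to 0.670), and its log2 difference of -0.69 lay at the 1.8 percentile of expressed genes. Me1 was 16.1% lower, with a ratio of 0.839 (0.790 to 0.890). Pgd was 14.9% lower (0.851, 0.825 to 0.878) and G6pdx 8.11% lower (0.919, 0.871 to 0.969). Rpia, the isomerase that yields ribose 5-phosphate, was 32.8% higher, with a ratio of 1.33 (1.13 to 1.56). Ratios of Tkt (0.946, 0.893 to 1.00), Taldo1 (1.05, 0.994 to 1.12), Pgls (0.959, 0.860 to 1.07) and Rpe (0.970, 0.868 to 1.08) had intervals that reached 1.

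None of the 9 was at least 2-fold apart from the control at 6 h, beside 1.08% of expressed genes higher and 0.631% lower. At 1.5-fold, 1 gene (Idh1) was lower and 0 were higher, beside 2.77% and 2.34% of expressed genes. Bounds were apart for 4 lower enzymes (Idh1, Me1, Pgd and G6pdx) and 1 higher (Rpia), beside 19.2% and 11.2% of all expressed genes. Among genes averaging 10 FPKM or more, those shares were 22.0% and 14.4%. The median log2 difference was -0.08 for the enzymes and -0.06 for all expressed genes. Both washout libraries were compared with the same control library, so an error in that library would shift both ratios of a gene together. The 1 h library likewise enters its ratio to control and the ratio of 6 h to 1 h. An error in the 1 h library would shift those ratios in opposite directions.

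**Figure D3:**
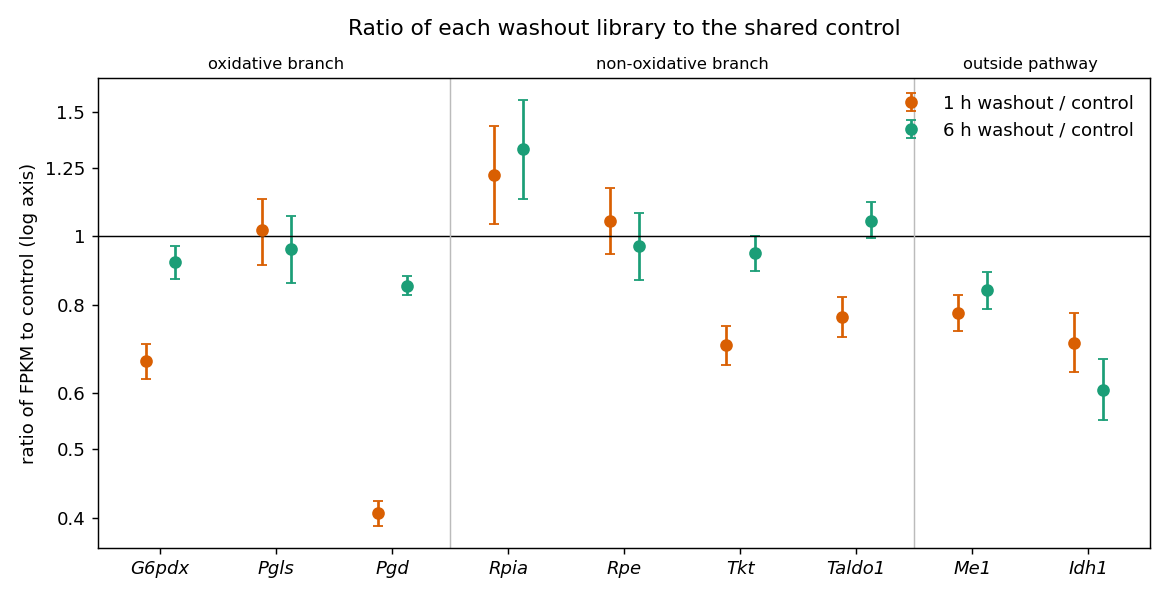
Ratio of FPKM in the 1 h and 6 h libraries to the shared control (log axis) for each gene; bars are the intervals of the ratios, and the line marks 1. At 1 h, 6 ratios lie between 0.406 and 0.779, and at 6 h those of G6pdx, Pgd, Tkt and Taldo1 lie between 0.851 and 1.05 while Idh1 is at 0.607.

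The direct comparison of 6 h with 1 h follows from both ratios to control and adds no further library. It set the genes that stood near the control again apart from those that did not. Pgd was 2.10-fold higher at 6 h than at 1 h (2.01 to 2.19), with a log2 difference at the 98.7 percentile of expressed genes. G6pdx was 1.38-fold (1.30 to 1.46), Taldo1 1.37-fold (1.28 to 1.46) and Tkt 1.35-fold higher (1.27 to 1.44). These 4 genes had bounds apart. Me1 was 1.08-fold higher (1.01 to 1.15) with overlapping bounds. Idh1 went the other way, at a ratio of 0.858 (0.770 to 0.955) with bounds apart. Intervals of Rpia (0.934 to 1.27), Rpe (0.825 to 1.03) and Pgls (0.843 to 1.06) held 1.

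Between the washout times 1 of the 9 was at least 2-fold higher and 0 lower, beside 1.47% and 1.70% of expressed genes. Bounds were apart for 4 higher and 1 lower, beside 19.7% and 23.0%. Among genes averaging 10 FPKM or more, those shares were 23.1% and 22.9%. The median log2 difference of the enzymes was 0.12, against -0.03 over all expressed genes.

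Other compartments hold isozymes of these enzymes, which are listed here with the enzymes they resemble. H6pd, which runs the first oxidative steps inside the endoplasmic reticulum, had 11.8 FPKM in the control, 11.7 FPKM at 1 h and 9.31 FPKM at 6 h. Its 1 h ratio of 0.993 (0.889 to 1.11) stands beside 0.666 for G6pdx, and its 6 h ratio of 0.791 (0.707 to 0.885) beside 0.919. Mitochondrial Idh2 had 77.7, 76.9 and 71.2 FPKM, a 1 h ratio of 0.990 (0.920 to 1.07) beside 0.707 for cytosolic Idh1. Mitochondrial malic enzyme 2 (Me2) had 53.4, 48.2 and 50.1 FPKM, with a 1 h ratio of 0.901 (0.837 to 0.971) beside 0.779 for Me1. Me3 was below 1 FPKM in every library. The transhydrogenase gene Nnt, whose product makes NADPH from NADH in mitochondria, had 18.3, 19.4 and 16.7 FPKM. Whether an isozyme differed from its cytosolic counterpart could not be tested with 1 library per group.

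The list of pathway neighbours held these isozymes, ribose and nucleotide precursor enzymes, folate-linked NADPH producers and NAD kinases. It had 32 genes with a row, of which 26 were expressed. At 1 h and at 6 h, 0 of the 26 were 1.5-fold from the control. Over all expressed genes 3.04% were 1.5-fold higher and 3.50% lower at 1 h, and 2.34% and 2.77% at 6 h. Bounds were apart for 3 higher and 5 lower at 1 h, and for 0 higher and 4 lower at 6 h. Over all expressed genes those shares were 14.9% and 20.1% at 1 h, and 11.2% and 19.2% at 6 h, so the list was near the background at 1 h. Its median log2 differences were -0.01 and -0.05. Phosphoribosyl pyrophosphate synthetase genes Prps1 and Prps2, which use ribose 5-phosphate, had 1 h ratios of 1.08 (0.970 to 1.20) and 1.07 (0.947 to 1.20). Mthfd2, a mitochondrial folate enzyme, had 40.1, 59.9 and 38.7 FPKM, highest at 1 h with a ratio of 1.49 (1.38 to 1.62). Nadkd1, the mitochondrial NAD kinase, had 13.2, 9.14 and 9.19 FPKM, lower at both times with ratios of 0.692 (0.621 to 0.771) and 0.696 (0.625 to 0.775).

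A list of 23 expressed redox and biosynthetic enzymes, most of which spend NADPH directly or through thioredoxin, was lower at 1 h in part. At 1 h 3 were at least 2-fold lower and 1 higher, beside 0.831% and 1.31% of all expressed genes, and bounds were apart for 11 lower and 3 higher, beside 20.1% and 14.9%. The median log2 difference was -0.16, and -0.28 over the 21 genes without P4ha1 and Cyb5r3, whose products do not use NADPH as their usual cofactor. The carbonyl reductase gene Cbr3 had 82.9, 26.9 and 78.5 FPKM, a 1 h ratio of 0.325 (0.286 to 0.368). Gsr, the glutathione reductase gene, had 83.0, 42.9 and 68.1 FPKM, and its 1 h ratio of 0.516 (0.484 to 0.551) lay between those of Pgd and G6pdx. Blvrb, a biliverdin and flavin reductase gene, had 64.6, 33.2 and 60.7 FPKM. The other genes at least 2-fold lower at 1 h stood above the control at 6 h. Txnrd1, the thioredoxin reductase gene, had 608, 256 and 830 FPKM, with a 6 h ratio of 1.37 (1.34 to 1.39). Nqo1, a quinone reductase gene, had 186, 72.0 and 255 FPKM, with a 6 h ratio of 1.37 (1.31 to 1.44). Por, which passes electrons from NADPH to cytochrome P450, had 56.1, 50.1 and 83.6 FPKM, highest at 6 h. At 6 h, 0 of the 23 were 1.5-fold from the control, beside 2.34% of expressed genes higher and 2.77% lower. Bounds were then apart for 4 higher and 2 lower, beside 11.2% and 19.2%. The gene higher at 1 h was Txnrd2, listed at 0 in the control and at 6 h and at 10.3 FPKM at 1 h, so no ratio is given.

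Antioxidant genes linked to NRF2, a list that holds none of the 9 enzymes, were lower at 1 h as well. Of these 12 genes, 12 had bounds apart and lower at 1 h, beside 20.1% of all expressed genes, and 5 were at least 2-fold lower, beside 0.831%. The median log2 difference was -0.81, beside -0.37 for the 9 enzymes, a gap that was not tested. At 6 h the median was -0.11, with bounds apart for 3 higher and 8 lower, beside 11.2% and 19.2%. Slc7a11, the cystine importer gene, had 15.6, 8.28 and 21.1 FPKM, and thus stood above the control at 6 h, with a ratio of 1.36 (1.28 to 1.44). This list was chosen with earlier results of these libraries known, so its direction is no independent evidence.

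**Figure D4:**
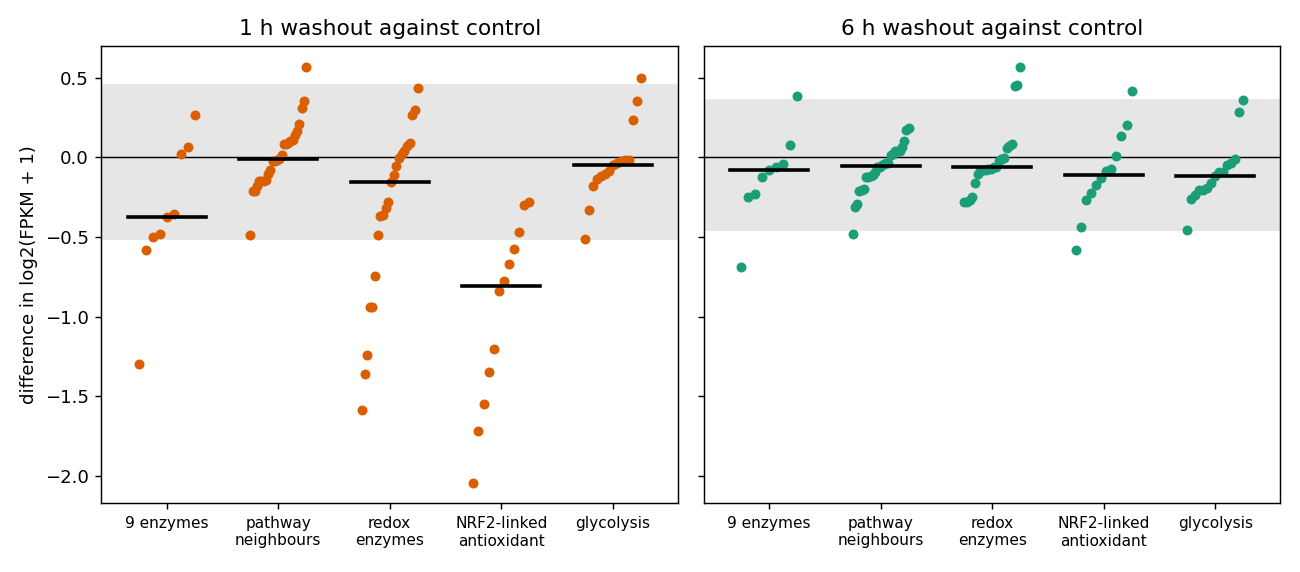
Difference in log2(FPKM + 1) from the control at 1 h and 6 h for the 9 enzymes and 4 other gene lists, 1 point per expressed gene; black lines are medians and the grey band holds the 5 to 95 percentiles of all expressed genes (-0.51 to 0.45 at 1 h). Txnrd2, listed at 0 in the control, counts in its list's median but is not drawn. List medians at 1 h run from -0.81 for NRF2-linked genes to -0.01 for pathway neighbours.

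Pgd had the widest range of the 9 over the 3 libraries, 1.29 on log2(FPKM + 1), and Pgls the narrowest at 0.08. The genes most like Pgd were sought among 6201 other genes averaging 10 FPKM or more, by the Euclidean distance between their log2 differences from control at 1 h and 6 h. The nearest were D4Wsu53e (distance 0.03), Gclm (0.05), Osgin1 (0.13), Gclc (0.14), Map1a (0.19) and Sqstm1 (0.22). Gclm and Gclc encode the subunits of glutamate-cysteine ligase, which starts glutathione synthesis, and Sqstm1 encodes an autophagy receptor. Gclc had 66.0, 28.1 and 60.2 FPKM and Osgin1 38.8, 16.4 and 35.1 FPKM in control, 1 h and 6 h. Of the 6201 genes, 5 lay within 0.2 of Pgd. The same count was not made for other genes. This likeness rests on 3 libraries.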

How the data were processed

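Per the file headers, the authors deposited FPKM per gene with a lower and an upper 95% bound and a status, in 1 table per library and 1 series table. Both held equal FPKM in all 23807 rows. Per the submitters' processing notes, FastQC, TopHat and Cufflinks were used with mm9; their versions, settings and annotation are not stated in those notes. The series columns headed cont with a time were assigned through the time that each title gives; the labels do not explain cont.

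Rows with 1 symbol were summed (Python 3.11.15, pandas 2.3.3). Differences are log2(FPKM + 1), which understates those of low genes; 10464 of 23298 genes, those averaging 1 FPKM or more, were kept. Ratios use FPKM without the pseudocount, with intervals from the relative half-widths of both libraries' bounds combined in quadrature. If bounds lie 2 SD from their centre, their widths correspond to 285 (Rpia, control) to 8920 fragments (Pgd, control). Deposited values lay outside their own bounds for 19.9% to 21.5% of rows above 1 FPKM. Depth was estimated from low values of genes with 1 transcript over 1500 nt in GENCODE vM21, of which 67.1% to 70.9% lay within 0.15 of a whole fragment (30% if values were spread evenly, though the fitted spacing came from these values too). Whole fragments were not recovered, so no count test was run. Locus starts were printed with 1 added, since end minus start equalled the GRCm38.p6 gene length for 9171 of 21275 symbols and was 1 short for 557.

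The members and lists were chosen with earlier results of these data known. From each other list the rule took the 6 expressed genes that differed most from the control, plus isozymes of members, and for likeness the 6 nearest genes; the values of some of these are not printed. Symbols Nadk2, 1110033J19Rik, Tigar, Akr1a4 and Pkm2 matched no row. The lists also held Nadkd1, 9630033F20Rik, Akr1a1 and Pkm, other names of Nadk2, Tigar, Akr1a4 and Pkm2, and these had rows.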

Additional observations from a re-analysis of the deposited data

How the results depend on the processing

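Each of the 9 enzymes was recomputed with pseudocounts of 0.1 and 5, without a filter, with genes averaging 5 FPKM or more, with libraries rescaled by their upper quartile or so that the median ratio was 1, and with the per-library tables, the highest row per symbol, and rows with status OK. The filters, the per-library values, the highest row per symbol and status OK could not change a difference of these enzymes. Each enzyme had 1 row with status OK, averaged 10 FPKM or more, and had equal FPKM in both sources. Only the pseudocounts and the rescaling could move a difference. Of all 243 differences, 242 moved by less than their within-library interval. Of these, 2 small differences whose intervals held no change turned sign with a median ratio of 1, Pgls at 6 h against the control from -0.059 to 0.004 and Rpe from -0.041 to 0.018. The 1 that moved further was Pgd at 6 h against the control, which was -0.168 with a median ratio of 1. Under these alternatives and without the member that differed most, medians ranged from -0.377 to -0.346 at 1 h, from -0.080 to -0.016 at 6 h and from 0.097 to 0.149 between the times. Counts of enzymes called depended on the rule. With bounds apart they were 6 at 1 h, 5 at 6 h and 5 between the times. At 2-fold they were 1, 0 and 1, and at 1.5-fold the 6 h count was 1. The 1 h count at 1.5-fold depended on the pseudocount through G6pdx. Its 1 h difference was -0.580 with a pseudocount of 1, short of 1.5-fold, and -0.587 with 0.1, past it. Leaving out genes listed at 0 in any library, and taking as background the genes averaging 10 FPKM or more, were chosen after seeing the data, as were the split of the redox enzyme list and the use of bounds for the order of levels; with the former, 0.492% of genes were at least 2-fold lower at 1 h. Rescaling shifted all genes by at most 0.06 on the log2 scale. No paired analysis was possible because each group had 1 library. For the same reason no replicate could be left out, and spread between cultures is unknown.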

Other observations

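Glycolysis, from which the pentose phosphate pathway branches, was measured through 15 expressed genes. At 1 h and at 6 h, 0 of the 15 were 1.5-fold from the control. Over all expressed genes 3.04% were 1.5-fold higher and 3.50% lower at 1 h, and 2.34% and 2.77% at 6 h. Bounds were apart for 3 higher and 7 lower at 1 h, beside 14.9% and 20.1% of expressed genes. At 6 h they were apart for 2 higher and 10 lower, beside 11.2% and 19.2%. Among genes averaging 10 FPKM or more, as all 15 did, the shares at 6 h were 14.4% higher and 22.0% lower. The median log2 differences of the 15 genes were -0.05 at 1 h and -0.11 at 6 h, beside -0.02 and -0.06 over all expressed genes. The glucose transporter gene Slc2a1 had 94.6 FPKM in the control, 66.1 FPKM at 1 h and 93.8 FPKM at 6 h, lowest at 1 h with a ratio of 0.699 (0.661 to 0.740). Phosphofructokinase gene Pfkl went the other way, with 42.9, 60.9 and 38.2 FPKM and a 1 h ratio of 1.42. Pfkm, the muscle form, had 21.2, 25.2 and 15.2 FPKM. Hexokinase 2 (Hk2), which makes glucose 6-phosphate, had 16.9, 21.9 and 22.0 FPKM, higher at both times with ratios of 1.29 (1.20 to 1.39) and 1.30 (1.21 to 1.40). These values come from 1 library per group, like those of the enzymes above.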
